A study of Mus musculus with 2 samples.

Results

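The peaks described here come from ChIP-seq against H3K4me1, histone H3 with 1 methyl group on lysine 4, in E14TG2a.4 cells. This is a male line of mouse embryonic stem cells from strain 129/Ola, whose labels give an age of 3.5 days. The series held 2 biological replicates of this line, untreated as far as the labels say, and both came from the same donor entry. They formed 1 group with no control or treated group analysed here, so no test between groups was possible. The genes described here are 9 lysine demethylase genes, Kdm1a, Kdm1b, Kdm2b, Kdm3a, Kdm4c, Kdm5a, Kdm5b, Kdm5c and Kdm6b, chosen by name, of 20576 protein-coding genes measured. Earlier results of these data were known when they were chosen. For each gene the share of bases inside peaks was taken over the 20 kb before and the 20 kb after the transcription start site (TSS), called the window, and over the whole gene record from its 5' to its 3' end. Positions are on mm10 (GRCm38), and the TSS is the 5' end of the RefSeq record. Peak lists hold no read counts, so the depth behind a value is unknown and a stretch outside peaks is a stretch that was not called, not one shown to lack the mark.

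Lysine demethylases remove methyl groups from histone tails. The KDM1 enzymes are flavin-dependent amine oxidases that act on mono- and dimethylated H3K4, and so remove the very mark that was mapped. The other families carry a Jumonji C (JmjC) domain that uses iron and 2-oxoglutarate: KDM5 enzymes act on di- and trimethylated H3K4, KDM3 enzymes on mono- and dimethylated H3K9, KDM4 enzymes on trimethylated H3K9 and H3K36, KDM2B mainly on H3K36, and KDM6B on trimethylated H3K27. H3K4me1 is known for marking active and poised enhancers and the shoulders of active promoters, where the nucleosomes next to the start carry trimethylated H3K4 instead.

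H3K4me1 covered the surroundings of these genes very unevenly. Kdm5b, Kdm6b, Kdm1a and Kdm2b had between 49.3% and 74.6% of their windows in peaks in both replicates. The other 5 genes had between 6.39% and 26.1%, so the groups of replicate values did not overlap between these sets, which were separated after the values were seen. The median over the 9 genes was 20.4% in replicate 1 and 26.1% in replicate 2, against 14.7% and 14.4% for all genes. The mean of both replicates was above the all-gene median of 14.6% for 7 of the 9 genes, where 50% of all genes lie by construction, and Kdm1b and Kdm5c were below. Over whole records the median of the 9 was 34.2% and 45.5%, against 13.1% and 13.0% for all genes. Again 7 of the 9 lay above the median, with 50% of all genes above by construction, but here Kdm5a and Kdm5c were those below.

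**Figure D1:**
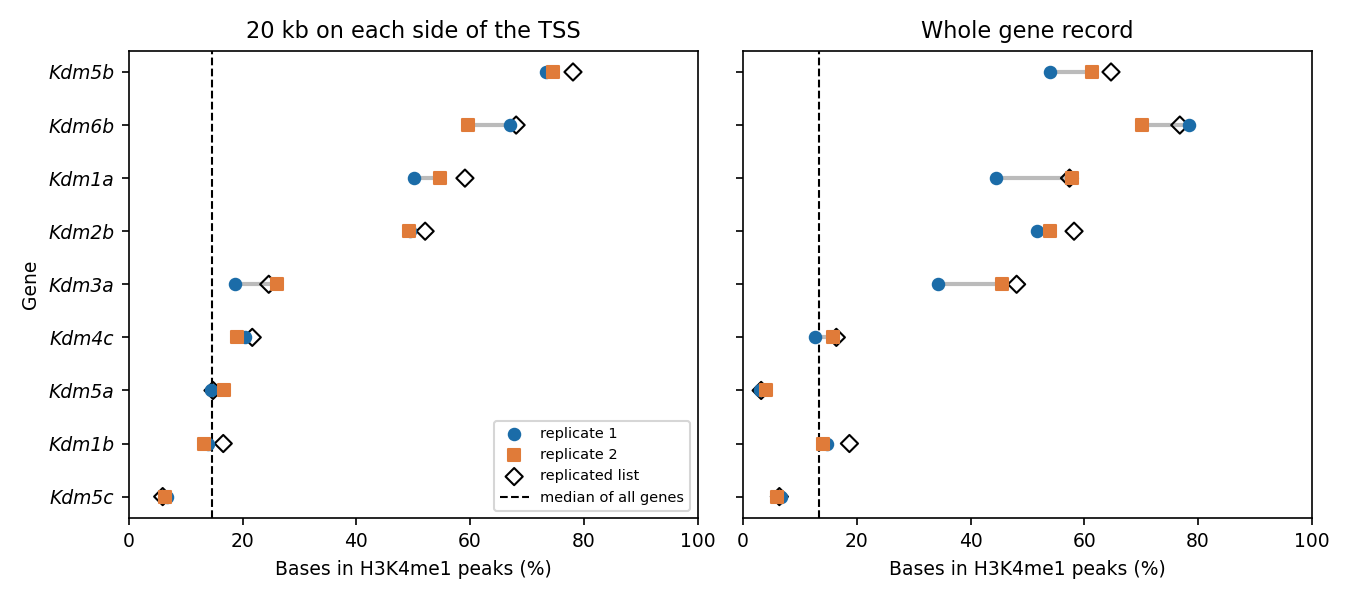
Share of bases in H3K4me1 peaks (x axis, percent) for each of the 9 genes (y axis), in the window around the TSS (left) and in the whole gene record (right). Circles are replicate 1, squares replicate 2, diamonds the replicated list, grey lines join the replicates, and the dashed line is the median of all genes (14.6% left, 13.3% right). Kdm5b is highest in the window and Kdm6b in the record, and Kdm1a and Kdm3a show the widest gaps between replicates in the record.

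The genes of the KDM1 pair, whose products share an activity, carried unequal amounts of the mark. Kdm1a, which works in the CoREST complex and is known for silencing enhancers when stem cells differentiate, lies at chr4:136550533-136602787 on the minus strand. Its window was covered at 50.2% in replicate 1 and 54.8% in replicate 2, a mean of 52.5% ± 3.3 (SD, n = 2) that put it at the 90.6th percentile of genes. Its record was covered at 44.4% and 57.9%. The replicates thus differed by 13.5 points, and 4.40% of all genes differed by as much. With a median record coverage of 13.3%, many of those genes had less mark to differ by, and genes of like coverage were not compared. This limit also applies to such shares given below. Kdm1b, known for its part in setting maternal imprints in oocytes, lies at chr13:47043373-47085279 on the plus strand. Peaks filled 13.9% and 13.2% of its window, a mean of 13.6% ± 0.49 (SD, n = 2) at the 48.3rd percentile, and its record at 14.7% in replicate 1 and 0.632 points less in replicate 2. The values of Kdm1a lay well above those of Kdm1b in both replicates and in both measures. Kdm1b starts 35 bp from Tpmt, which runs the opposite way, so both genes share 1 promoter and nearly 1 window.

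Among the KDM5 genes the spread was wider still. Kdm5b, an H3K4 demethylase known from stem cells, lies at chr1:134560178-134632878 on the plus strand. Its window was covered at 73.3% and 74.6%, a mean of 73.9% ± 0.92 (SD, n = 2), which ranked 194 of all genes, at the 99.1th percentile. Of the covered bases in this window, 43.5% and 45.0% lay outside Kdm5b in other protein-coding gene records. The Kdm5b record was covered at 53.9% and 61.3%, at the 86.9th percentile. Kdm5a, which is known for binding the retinoblastoma protein, lies at chr6:120364099-120444574 on the plus strand. Around its TSS 14.5% and 16.7% of the window was covered, a mean of 15.6% ± 1.5 (SD, n = 2) at the 51.6th percentile, while its record was covered at only 2.97% and 4.00%, at the 30.8th percentile. Most of the mark near Kdm5a therefore lay outside it: 58.7% and 51.7% of the covered bases in its window were in other protein-coding gene records, and Ccdc77 starts 270 bp inside Kdm5a on the opposite strand.

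Kdm5c, the X-linked member of this family, lies at chrX:152233198-152279102 on the plus strand and had the lowest window coverage of the 9, while Kdm5a had the lowest record coverage. Peaks filled 6.67% and 6.39% of its window, a mean of 6.53% ± 0.20 (SD, n = 2) at the 34.2nd percentile of all genes. The line is male, with a single X, and the median window coverage of 908 X-linked genes was 1.07% and 0.549%. Among those X genes Kdm5c stood at the 78.4th percentile, so its place depends on the genes it is set against. How far the single copy of the X moves these values was not tested.

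Of the genes for enzymes that act on other residues, Kdm6b and Kdm2b carried the most. Kdm6b, an H3K27 demethylase known for releasing Polycomb-repressed genes, lies at chr11:69398508-69420367 on the minus strand. Its window was covered at 67.0% and 59.6%, a mean of 63.3% ± 5.3 (SD, n = 2) at the 96.2th percentile. The replicates differed by 7.49 points, a difference that 3.76% of genes reached. Its record was covered at 78.4% and 70.2%, the highest of the 9 in both replicates and at the 94.2th percentile. By the signal value the authors gave each peak, the highest peak in the 9 windows was at Kdm6b in each replicate. It had 12.6 in replicate 1, at the 99.7th percentile of that list, and 10.6 in replicate 2, at the 99.3th percentile. These were different peaks, with summits 632 bp after the TSS in replicate 1 and 13324 bp after it in replicate 2. Over whole records a Kdm1a peak was higher in replicate 2, at 10.9. Kdm2b, which binds unmethylated CpG through a zinc finger and recruits a variant Polycomb complex there, lies at chr5:122870664-122989270 on the minus strand. In the window 49.5% and 49.3% of bases lay in peaks, a mean of 49.4% ± 0.097 (SD, n = 2) at the 88.7th percentile, and its record at 51.6% and 54.0%.

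Kdm3a and Kdm4c, whose products act on methylated H3K9, lay in the middle of the order. Kdm3a, at chr6:71588970-71632990 on the minus strand, had 18.6% and 26.1% of its window in peaks, a mean of 22.3% ± 5.3 (SD, n = 2) at the 61.5th percentile. Its replicates differed by 7.48 points, a difference that 3.77% of genes reached, and its record, at 34.2% and 45.5%, differed in the same direction. Kdm4c, at chr4:74242497-74405864 on the plus strand, had 20.4% and 19.0% of its window in peaks, a mean of 19.7% ± 1.0 (SD, n = 2) at the 57.8th percentile. Its record was covered at 12.7% and 15.9%. In the order of window coverage, Kdm3a and Kdm4c were the only neighbours whose replicate values overlapped. Every other gene lay above the next in both replicates, though in replicate 1 by less than 1 point between Kdm1a and Kdm2b and between Kdm5a and Kdm1b. In both replicates 2 of the 9, Kdm5b and Kdm6b, exceeded the 90th percentile of window coverage, as 8.89% of all genes did.

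The base at the TSS lay outside the replicated peaks at all of the 9 genes: 0 of 9 had it in a peak, against 19.2% of all genes. All 9 had a replicated peak within 2 kb of the TSS, against 74.7% of all genes, and at 6 of the 9 such peaks lay on both sides, against 63.8%. Averaged over the 9 genes, coverage in the bins of 100 bp that touch the TSS was 3.94% in replicate 1 and 0.722% in replicate 2, where all genes had 20.3% and 15.6%. Upstream the average of the 9 was highest, at 64.8%, in the bin that begins 800 bp before the TSS in replicate 1 and, at 63.8%, in the bin 700 bp before it in replicate 2. Downstream it was highest, at 77.8%, in the bins from 2100 to 2500 bp after the TSS in replicate 1 and, at 81.0%, in the bin that ends at 3900 bp in replicate 2. The average of all genes was highest in the bin that ends at 1200 bp in both, at 46.8% and 42.0%. With 9 genes a single one can move the average of a bin by many points, so the place of these maxima is only roughly fixed.

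**Figure D2:**
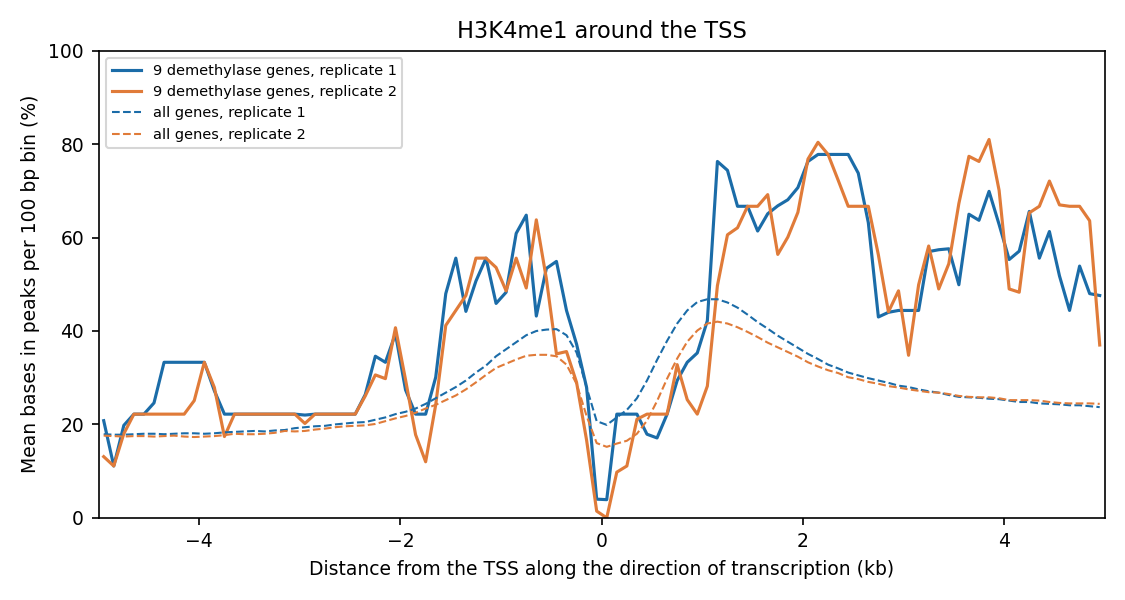
Mean share of bases in peaks per 100 bp bin (y axis, percent) against distance from the TSS in the direction of transcription (x axis, kb). Solid lines are the 9 demethylase genes and dashed lines all genes, blue for replicate 1 and orange for replicate 2. Next to the TSS the 9 genes average 3.94% and 0.722%, below the 20.3% and 15.6% of all genes, and downstream they reach 77.8% and 81.0%.

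The width of the unmarked stretch at the TSS varied widely among the 6 genes with replicated peaks within 2 kb on both sides. It was narrowest at Kdm6b, with 161 bp in replicate 1 and 352 bp in replicate 2, followed by Kdm2b with 360 and 634 bp. It was 1142 and 1255 bp at Kdm1b, 1259 and 1224 bp at Kdm1a, and 1728 and 1665 bp at Kdm5a. At Kdm5b it was widest of these, with 2089 and 2090 bp, and there the stretch lay almost wholly downstream: the nearest upstream mark ended 76 and 88 bp before the TSS. The nearest downstream mark began at 2013 and 2002 bp, just beyond 2 kb, and only in the replicated list, at 1914 bp, was it within that distance. The pair with the highest window coverage thus had the narrowest and the widest stretch of these 6 genes. The Kdm5b stretch holds the start of Mgat4e, which lies 1568 bp into Kdm5b on the opposite strand.

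At 3 genes the replicated peaks within 2 kb of the TSS lay on the downstream side only. At Kdm3a no base of the 20 kb upstream was in a peak in either replicate, and the nearest upstream mark was 74099 bp away in replicate 1 and 74458 bp in replicate 2. Downstream the first peak began at 1054 and 1134 bp, and 37.2% and 52.2% of the 20 kb was covered. The older mm9 lists likewise had 0% of the 20 kb upstream of Kdm3a in peaks in both replicates, and 31 of 40 evenly spaced stretches of 32 bp there occur once in the mm9 genome, against 39 of 40 downstream. At Kdm5c the nearest upstream mark lay 1305 bp away in replicate 1 but 23296 bp away in replicate 2, so its upstream side rests on 1 library. At Kdm4c the nearest upstream mark lay 10558 and 10616 bp away and the nearest downstream mark 3492 and 1968 bp away. The promoter peak counted for Kdm4c rests on replicate 2 and the replicated list, in which a peak reaches to within 1958 bp. Without replicate 2, 8 of the 9 genes had a peak within 2 kb, a count for which the share of all genes is not given here.

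Downstream coverage exceeded upstream coverage in both replicates at 7 of the 9 genes, against 46.8% of all genes. Kdm2b was one exception, with 61.4% and 61.0% upstream and 37.6% and 37.7% downstream, and Kdm5a the other, with 17.0% and 17.2% upstream against 12.0% and 16.1% downstream. Of the bases covered in the Kdm2b window, 62.0% and 61.8% lay in no protein-coding gene record, the largest share among the 9. The upstream side of Kdm1a (36.3% and 29.2% covered) holds the start of Tex46, 4304 bp away on the opposite strand, and of Lactbl1, 19834 bp away. A replicate 1 peak from -4421 to -2960 bp covered the Tex46 start, and in replicate 2 the nearest peak reached -4026 bp. Neither replicate had a peak on the Lactbl1 start. The outermost peaks in the window reached -19008 bp in replicate 1 and -17956 bp in replicate 2. At Kdm6b the upstream side (53.7% and 47.5% covered) lay almost wholly inside other records. The record next to it belongs to Dnah2, an upstream gene on the same strand whose TSS is 128741 bp away and which is named here after its values were seen.

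**Figure D3:**
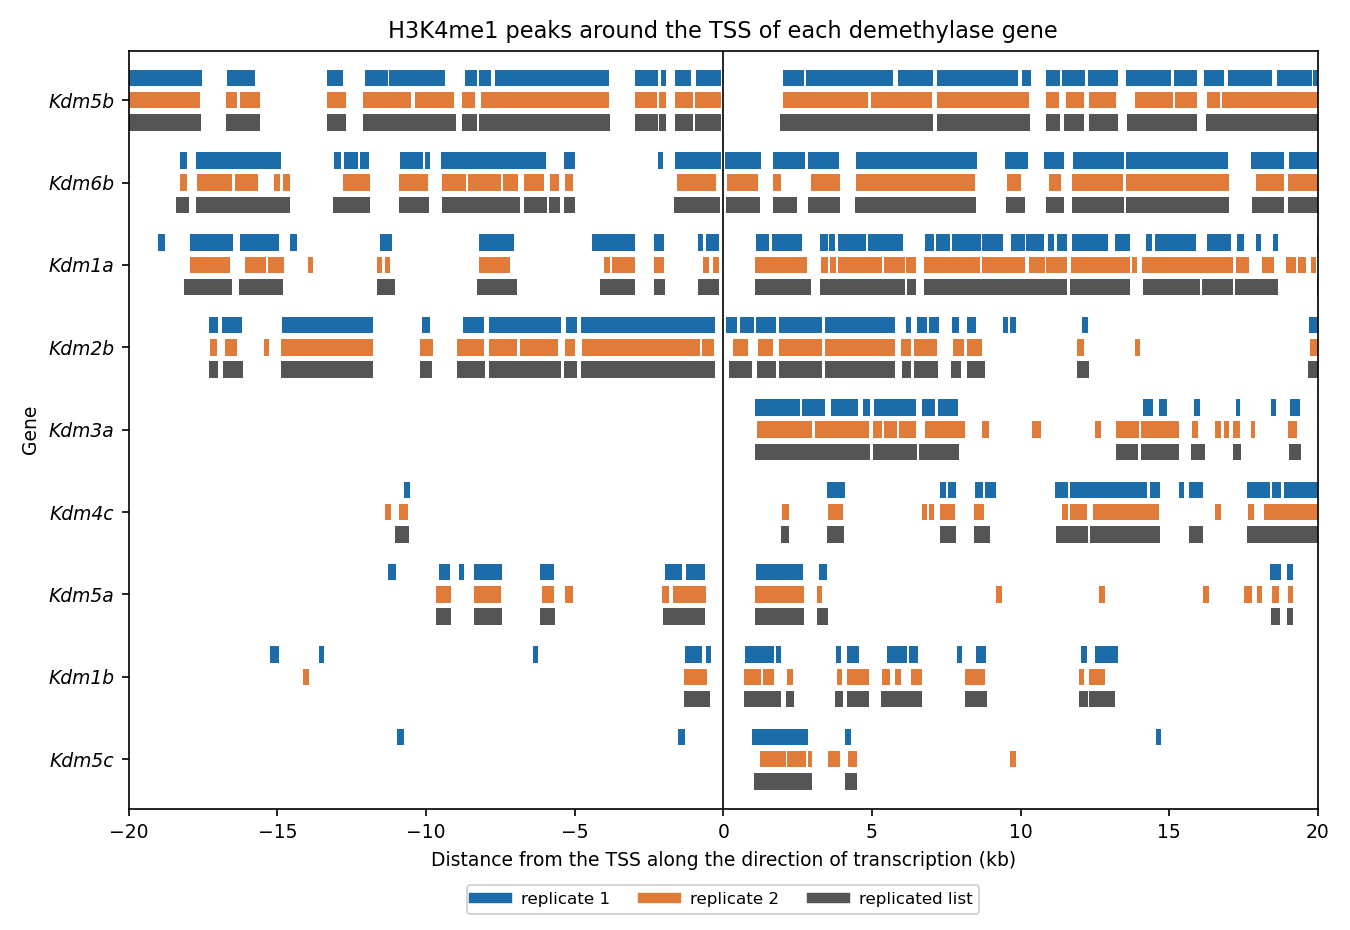
H3K4me1 peaks within 20 kb of the TSS of each gene (y axis, ordered by window coverage), against distance from the TSS in the direction of transcription (x axis, kb). Blue bars are replicate 1, orange bars replicate 2 and grey bars the replicated list. No bar crosses the TSS, the upstream side of Kdm3a is empty in both replicates, and the first 2 kb of Kdm5b hold almost none.

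The mark lay differently around different annotated starts, and 6 promoter sequences are shown as examples of starts that differed in mark or in CpG, chosen after their values were seen. RefSeq promoter sequences (GRCm38.p6) were at hand for 13 annotated starts of 7 of the 9 genes, without Kdm5a and Kdm6b. Each line is the 250 bases before the start, 5' to 3' on the strand of the gene, with CpG in capitals. The first pair belongs to Kdm4c, whose start at the 5' end of the record lies at chr4:74242247-74242496 and whose second start, 9382 bp further on, follows chr4:74251629-74251878.
Kdm4c, first start: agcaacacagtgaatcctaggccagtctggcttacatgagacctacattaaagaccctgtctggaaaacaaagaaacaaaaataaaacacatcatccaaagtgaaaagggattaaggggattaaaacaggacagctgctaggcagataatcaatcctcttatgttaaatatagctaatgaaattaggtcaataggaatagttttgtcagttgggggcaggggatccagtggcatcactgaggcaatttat
Kdm4c, second start: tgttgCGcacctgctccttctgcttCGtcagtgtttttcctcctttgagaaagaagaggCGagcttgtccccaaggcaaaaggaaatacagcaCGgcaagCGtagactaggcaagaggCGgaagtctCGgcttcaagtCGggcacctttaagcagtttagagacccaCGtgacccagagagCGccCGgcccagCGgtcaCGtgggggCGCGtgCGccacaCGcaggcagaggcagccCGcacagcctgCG
The first Kdm4c sequence has 0 CpG and 39.6% G and C, and the second has 19 CpG and 60.4%, where the median over 16485 genes is 10.0 CpG and 56.0%. The 2 kb before the first start held no mark in either replicate. The 2 kb before the second start were covered at 53.0% in replicate 1 and 36.4% in replicate 2, and the nearest mark lay 205 and 626 bp before it. Which start is used in these cells cannot be read from peak lists.

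Within Kdm2b and Kdm3a, internal starts differed in another way. The Kdm2b start 88903 bp into the record follows chr5:122900368-122900617 and the Kdm3a start 23851 bp into the record follows chr6:71609140-71609389, both on the minus strand.
Kdm2b, internal start: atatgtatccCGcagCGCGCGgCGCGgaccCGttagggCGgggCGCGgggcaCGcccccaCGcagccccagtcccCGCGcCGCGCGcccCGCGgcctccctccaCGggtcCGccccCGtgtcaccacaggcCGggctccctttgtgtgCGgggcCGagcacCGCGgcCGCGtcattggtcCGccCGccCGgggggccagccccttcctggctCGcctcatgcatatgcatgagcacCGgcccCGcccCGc
Kdm3a, internal start: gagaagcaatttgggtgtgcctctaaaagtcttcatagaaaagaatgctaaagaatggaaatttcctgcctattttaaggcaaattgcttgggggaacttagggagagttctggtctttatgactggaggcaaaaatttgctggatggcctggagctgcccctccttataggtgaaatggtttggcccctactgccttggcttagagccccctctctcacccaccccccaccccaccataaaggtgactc
The Kdm2b sequence has 36 CpG, more than 96.9% of genes have at their starts, and contains the string GGGCGG, which 44.4% of promoters hold on either strand. It also contains CCAAT on at least one strand, as 36.6% of promoters do. Its 300 bp promoter (the 250 bases shown and the first 50 after the start) was covered at 0% in both replicates, and mark lay on both sides, covering 71.5% and 60.4% of the 2 kb before the start and 61.8% and 60.5% of the 2 kb after it. The Kdm3a sequence has 0 CpG and holds neither of those strings, nor TATAAA (in 12.1% of promoters), on either strand. Its 300 bp were covered at 39.3% in replicate 1, 66.0% in replicate 2 and 100% in the replicated list. So the internal Kdm2b start had the gap with marked shoulders seen at the 5' ends of records, and the internal Kdm3a start lay in a peak in replicate 2 and the replicated list. In replicate 1 it lay between peaks, 171 bp after one and 12 bp before the next.

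The last pair belongs to 5' ends of the KDM5 family. The Kdm5b sequence lies at chr1:134559928-134560177 and the Kdm5c sequence at chrX:152232977-152233226, before a start 29 bp into the record.
Kdm5b: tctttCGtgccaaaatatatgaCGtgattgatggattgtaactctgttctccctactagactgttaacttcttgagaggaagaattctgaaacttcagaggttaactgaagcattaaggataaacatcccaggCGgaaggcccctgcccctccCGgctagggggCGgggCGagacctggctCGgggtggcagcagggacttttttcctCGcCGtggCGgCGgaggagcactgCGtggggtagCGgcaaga
Kdm5c: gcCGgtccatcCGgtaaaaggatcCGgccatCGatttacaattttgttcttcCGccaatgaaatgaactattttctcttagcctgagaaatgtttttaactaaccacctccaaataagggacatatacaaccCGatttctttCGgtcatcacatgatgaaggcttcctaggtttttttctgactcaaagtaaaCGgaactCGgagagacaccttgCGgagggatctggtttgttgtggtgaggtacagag
Kdm5b has 13 CpG, and mark reached into this stretch: 58.3% of its 300 bp promoter was covered in replicate 1 and 54.3% in replicate 2. Kdm5c has 10 CpG and none of its 300 bp was covered in either replicate. Over the 13 starts, the 300 bp promoter was covered at 0% in the replicated list at 8 and at 100% at 2, the internal Kdm3a start and a Kdm2b start 763 bp into the record with 12 CpG. A letter match or a CpG count describes the sequence only, and several of these starts lie in the same promoter.

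Along the gene records the mark fell into 3 patterns, described here after cutting each record into 10 equal segments from 5' to 3'. Kdm6b, Kdm2b and, with gaps, Kdm5b were marked along most of their length. Kdm6b had between 40.9% and 96.8% of each segment covered in replicate 1 and between 21.7% and 96.4% in replicate 2, with the fifth segment lowest in both. Kdm2b had its highest segment in the middle, the sixth, at 88.7% and 88.2%. Kdm5b was covered at 73.2% and 86.0% in its last segment but at 0% in both replicates in the sixth.

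Kdm1a and Kdm3a carried mark over the first 8 segments with breaks and little at the 3' end. The last 2 segments of Kdm1a were at 0% in replicate 1, and at 8.09% and 6.56% in replicate 2, and the eighth segment was at 75.4% and 94.1%. The last segment of Kdm3a was at 0% in both. In the remaining genes the mark was highest in the first or the second segment. Kdm5a had 22.9% and 22.7% of its first segment covered and nothing in its last 7 segments in either replicate, and Kdm5c had 44.7% and 51.4% of its first segment covered and at most 17.8% of any other. Kdm1b and Kdm4c had their highest value in the second segment, at 36.0% and 43.2% for Kdm1b and 41.6% and 52.7% for Kdm4c. Coverage of the record exceeded that of the window in both replicates at 4 of the 9 genes (Kdm1b, Kdm2b, Kdm3a and Kdm6b), against 39.7% of all genes.

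**Figure D4:**
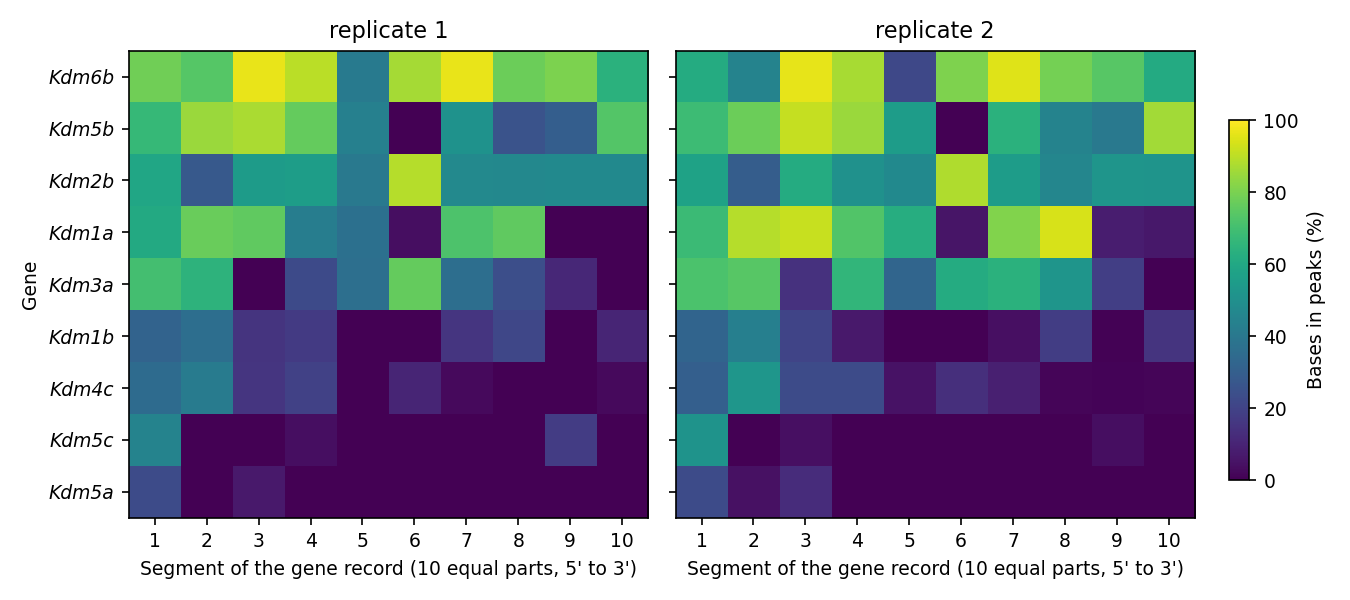
Share of bases in peaks (colour, percent) in each of 10 equal segments of the gene record from 5' to 3' (x axis) for each gene (y axis, ordered by record coverage), in replicate 1 (left) and replicate 2 (right). Kdm6b is marked throughout, Kdm5b drops to 0% in the sixth segment, and Kdm5a is at 0% in its last 7 segments in both replicates.

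Replicated peaks at most 1 kb apart were joined into domains, and a domain of at least 10 kb overlapped the record of 4 of the 9 genes, against 17.2% of all genes. Such a domain also overlapped 5 of 13 other demethylase genes, 8 of 19 partner genes and 7 of 18 methyltransferase genes, lists described below. It is therefore not particular to the 9, and the length of the records was not accounted for. The widest domain at the 9 genes, 31577 bp at Kdm5b, began 1914 bp after the TSS and ran to 33490 bp, and ranked 289 of all domains. Replicate 1 peaks filled 82.7% of it and replicate 2 peaks 85.3%. The widest Kdm2b domain, of 19020 bp, reached from -10208 to 8811 bp relative to the TSS. Among the widest domains of these 4 genes it alone spanned the start. The Kdm1a domain of 17592 bp lay from 1072 to 18663 bp after the TSS. The widest Kdm6b domain, of 14611 bp, lay from 9498 to 24108 bp after the TSS, so it passed the 3' end of the record, which is 21860 bp long. A second Kdm6b domain did span the start, from -1646 to 8495 bp, and a gap just over 1 kb split it from the widest. In the replicate 1 list alone the widest Kdm6b domain was 26343 bp. The widest domains of the other genes were 9311 bp at Kdm4c, 6860 bp at Kdm3a, 2919 bp at Kdm1b, 2456 bp at Kdm5a and 1982 bp, a single peak, at Kdm5c.

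The replicates shared most peaks near these genes. In the 9 windows 138 of 160 replicate 1 peaks (86.2%) overlapped a replicate 2 peak by at least 1 bp, against 82.8% of the whole list, and 131 of 163 replicate 2 peaks (80.4%) overlapped a replicate 1 peak, against 79.4%. The bases in peaks of both replicates made up 88.9% of those in peaks of either at Kdm5b but 43.7% at Kdm5c and 45.4% at Kdm1b. Equal percentages in both replicates at those sparsely marked genes therefore do not mean that the same bases were covered. Record coverage was higher in replicate 2 at 6 of the 9 genes, against 37.1% of all genes, and lower at Kdm1b, Kdm5c and Kdm6b. The replicate 2 list was derived from 1 further file that the replicate 1 list was not. The role of that file is not stated, and its part in these differences was not tested.

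Genes of related function give the setting, as lists chosen by name. Earlier results of these data were known when the 9 genes and the lists were chosen, so differences between them are description only. The 13 other demethylase genes had a median window coverage of 15.8% ± 0.27 (SD over the replicates' medians, n = 2), and 7 of the 13 lay above the median of all genes. The highest were Jmjd1c, an H3K9 demethylase gene related to Kdm3a, at 74.3% and 75.1%, and Kdm4b, related to Kdm4c, at 66.1% and 67.7%. The lowest were Kdm5d on the Y chromosome, at 0% in both, and Phf8 on the X, at 3.03% and 1.49%. A replicated promoter peak was present at 11 of the 13, against 74.7% of all genes, and the Y-linked Kdm5d and Uty had none. Their means ranged from 0% to 74.7%, beside a range of 6.53% to 73.9% among the 9.

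The 19 genes for partners of KDM1A and KDM2B had a median of 31.8% ± 1.6 (SD, n = 2), with 15 of the 19 above the all-gene median. All 19 had a promoter peak, against 74.7% of all genes. Usp7, for a deubiquitinase found with the KDM2B complex, had 83.8% and 85.4%, and Hmg20b, for a CoREST subunit, 81.1% and 74.9%. Yaf2, for a Polycomb subunit, had 3.16% and 2.35%, and Rcor3, for a CoREST paralogue, 5.11% and 2.82%. The 18 genes for methyltransferases that set the marks these enzymes remove had a median of 29.6% ± 2.2 (SD, n = 2). Of these, 14 of the 18 lay above the all-gene median, and all 18 had a promoter peak, against 74.7% of all genes. Setd1b, for an H3K4 methyltransferase, had 68.8% and 64.6%, and Ehmt2, for an H3K9 methyltransferase, 66.8% and 64.1%. Suv39h2, for another H3K9 methyltransferase, had 5.74% and 7.65%, and Nsd3, for an H3K36 methyltransferase, 11.0% and 9.92%.

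Marker genes were read the same way to check the labelled cell type. The 12 embryonic stem cell markers had a median window coverage of 55.6% ± 1.1 (SD, n = 2), and 11 of the 12 lay above the all-gene median. Klf2 was highest, at 78.8% and 75.8%, followed by Tbx3 at 75.8% and 73.1%. The lowest were Esrrb, at 7.98% and 8.18%, and Dppa3, at 35.8% and 28.5%. The whole record of Esrrb, however, was covered at 55.9% and 53.6%. Over records 10 of the 12 lay above the all-gene median, where 50% of all genes lie by construction, and Sox2 and Klf2 were below. The 10 fibroblast markers, for feeder cells that such a culture can hold, had a median of 3.14% ± 0.35 (SD, n = 2) and ranged from 0% to 39.8%. A promoter peak was present at 5 of the 10, against 74.7% of all genes. Pdgfrb (41.6% and 37.9%) and Thy1 (31.7% and 29.9%) were highest, and Col3a1 and Dcn were among 4 at 0% in both replicates. Whether other cells in the culture contributed to the peaks at the demethylase genes was not tested.

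**Figure D5:**
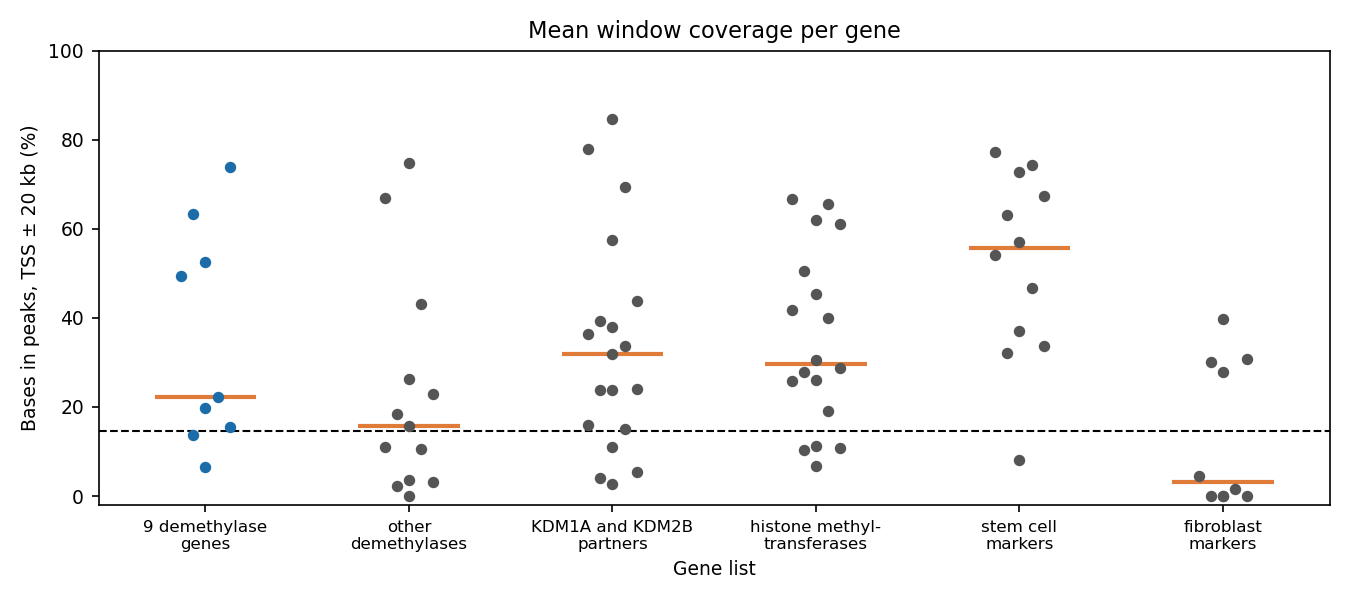
Mean window coverage over the replicates (y axis, percent) of every gene in each list (x axis). Points are genes, orange lines are medians over the genes of a list, and the dashed line is the median of all genes (14.6%). The 9 demethylase genes have a median of 22.3%, between the 15.8% of the other demethylase genes and the 31.8% of the partner genes, and their points spread over most of the range.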

How the data were processed

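H3K4me1 ChIP-seq of 2 biological replicates was used as deposited peak lists. How reads were aligned and peaks called is not given in the sources used here. The authors deposited mm10 lists of each replicate, of the pooled data and of peaks they kept as replicated, and mm9 lists whose intervals are multiples of 200 bp. The authors gave each mm10 peak a signal value and a −log10 q, which were used within a list only, for ranks and filters. The replicates hold 313453 and 325226 mm10 peaks and the replicated list 226060. From the lists, coverage was computed with Python 3.11.15 and numpy 2.4.6 as the share of bases inside peaks, tested first on simulated peaks. Records came from RefSeq GRCm38.p6 and strands from GENCODE vM1 by symbol (18392 genes) or synonym (2184), and 1311 genes without a strand were left out. Builds were never converted. The 9 genes and all lists were chosen with earlier results of these data known. All 9 are named, and from each other list the 2 highest and 2 lowest by window coverage, up to 2 without a promoter peak, and coding neighbours starting within 20 kb. Mean and SD describe 2 libraries, and no test was run. Alternatives were other windows, distances, gaps, overlaps, filters, lists and builds, and each replicate left out.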

Additional observations from a re-analysis of the deposited data

How the results depend on the processing

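The median window coverage of the 9 genes was 22.3%, and it was 35.4% with windows of 5 kb, 9.75% with the 50000 strongest peaks, 29.2% with the pooled list and 42.1% on mm9. The all-gene medians moved with it, to 22.1%, 2.82%, 18.3% and 23.0%. The median record coverage of 39.8% became 11.8% with the 50000 strongest peaks, 48.1% with the replicated list, 53.4% with the pooled list and 75.1% on mm9. Without each replicate in turn the medians ranged from 20.4% to 26.1% for windows and from 34.2% to 45.5% for records. The count above the all-gene window median was between 6 and 8 under every alternative run. The count of 9 with a promoter peak, against 74.7% of all genes, was 8 without replicate 2 and 9 without replicate 1. It fell to 6 within 1 kb and to 0 on the TSS base, where 19.2% of all genes had a peak. For the counts within 1 kb and without a replicate, the share of all genes is not given here. The widest domain, 31577 bp at Kdm5b, was 7914 bp at Kdm1a when only touching peaks were joined, 74143 and 343586 bp at Kdm2b with gaps of 3 and 10 kb, and 34372 bp with the pooled list. Without each replicate it was 31470 to 31479 bp. Peaks shared by the replicates in the 9 windows made up 83.3% as the mean of both lists, and 51.4% at 50% reciprocal overlap. With windows of 5 kb Kdm2b was first and Kdm4c last in the order. Of 144 values of single genes under other settings, 83 moved by at least the SD of the replicates. The 144 include the values with 1 replicate left out. Those cannot reach that SD by construction, so the count understates how often the other settings moved a value. An SD of 2 values is also a rough measure. The cause of the shifts was not tested. The alternative of any RefSeq start, chosen after seeing the data, gave 9 of 9. The main count was already 9, so this alternative could not raise it. RefSeq starts were at hand for only 7 of the 9 genes, and the share of all genes under this rule is not given here. It is therefore no check of the count. Depth is unknown, so what it limits could not be measured. No paired analysis was possible because there was 1 group.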

Other observations

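On mm9, with GENCODE vM1 gene models, the mark could be split between exons and introns of 1 transcript per gene. Its intervals are wider than many exons, and its coverage is higher than on mm10. Over 19167 genes the median coverage of the first intron was 41.4% in replicate 1 and 34.1% in replicate 2, and that of the other introns, over 17439 genes, 16.9% and 17.5%. At Kdm5a the first intron was covered at 77.4% and 88.6% and the other introns at 4.18% and 5.23%. Kdm5c had 56.1% and 81.0% in its first intron and 2.73% and 1.88% in the others, and Kdm4c 79.4% and 81.3% against 21.9% and 26.9%. At these 3 genes a larger share of the first intron than of the other introns was covered in both replicates. The same order held at Kdm1a, Kdm1b, Kdm2b and Kdm5b and in the medians of all genes, so it is not particular to the 3. At Kdm3a the order was the other way: its first intron, of 225 bp, was at 0% in both replicates, and the other introns were at 70.8% and 85.8%. At Kdm6b exons were covered at 91.7% and 89.3%, the first intron at 87.4% and 70.5% and the other introns at 88.1% and 76.3%. The Kdm6b model is 15168 bp long on mm9 against 21860 bp in RefSeq on mm10, and that of Kdm2b 144413 against 118607 bp, so their starts differ between the builds.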
